A study of Mus musculus with 8 samples.

Results

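The nephric and genital duct transcription factors followed here are Pax2, Pax8, Gata3, Lhx1, Tfcp2l1, Emx2, Sall1 and Six2. They are 8 of the 24346 genes that the files list, and they were taken by gene symbol from every library. Of the 8 factors, 7 had a value above 0 in at least 1 library and were tested among 18862 genes. Lhx1 was listed at 0 in all 8 libraries.

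RNA was measured in primary cultures of adipose-derived stem cells (ADSCs) from adipose tissue of WT mice of the BALB/c background, which the study took from the gonadal fat of male animals. The 2D group, conventional cultures, held 4 libraries (mice 2, 3, 4 and 5), and the 3D group, organotypic cultures in the basement membrane gel Matrigel, held 4 libraries (mice 1, 4, 5 and 7). Each library was 1 mouse and 1 culture, and mice 4 and 5 each contributed to both groups. The matrix and the medium changed together between the cultures and cannot be told apart, and the passage and the medium of each library are not given in the sources used here.

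In the embryo, the intermediate mesoderm forms the nephric duct, an epithelial tube that becomes the Wolffian duct and later, in the male, the epididymis and vas deferens. The Müllerian duct grows along it, and the ureteric bud that branches from it meets nephron progenitor cells and builds the kidney. Pax2 and Pax8 specify this lineage, Gata3 and Lhx1 act in the growing duct, Tfcp2l1 marks distal nephron and other duct epithelia, Emx2 is needed in both genital ducts, and Sall1 and Six2 belong to the nephron progenitors. The data were used to ask which of these factors differed between the 2D and 3D cultures.

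Pax8, Pax2, Gata3 and Tfcp2l1 were higher in all 4 3D libraries than in any 2D library, and the narrowest gap was that of Tfcp2l1, at 0.677 FPKM in its highest 2D library and 6.79 FPKM in its lowest 3D library. FPKM scales the fragments of a gene by transcript length and by sequencing depth, so levels can be compared between genes. Emx2 was present in every library of each group and overlapped between them. Sall1 was low, Six2 was high in the 3D culture of mouse 1 alone, and Lhx1 was not detected. Values per library below are FPKM as deposited, and means, differences and tests are from values quantile normalized to a common distribution, written nFPKM. A difference is given on the log2(nFPKM + 1) scale, which understates the change of low genes.

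At an adjusted p below 0.05 (limma, Benjamini-Hochberg over all genes tested), 5 of the 7 tested factors were called higher in 3D (Pax8, Gata3, Pax2, Tfcp2l1 and Sall1) and 0 lower. Of all genes tested, 21.2% were called higher and 20.3% lower. The same 5 factors had no overlap between the groups, with 3D above 2D, against 21.6% of all genes tested. At the criterion of the study, a fold above 2 with an unadjusted p below 0.05, 4 of the 7 were called higher, against 10.6% of all genes tested. The median difference was 3.20 over the 7 factors and 0.00122 over all genes tested. The factors were chosen with earlier results of these data known, so these contrasts with all genes are descriptive only. With the floor of 3 fragments in place of the 2D level of factors that did not exceed it, the median log2 fold of the 7 factors on the deposited scale was 6.45, which is the bound of Six2 and rests on the 3D culture of mouse 1, and 5.14 without that culture. With the mouse as a block, a fit that leaves 1 residual degree of freedom, 0 of the 7 factors and 0 of all genes were called by limma, and 4 of the 7 had an unadjusted p below 0.05.

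**Figure D1:**
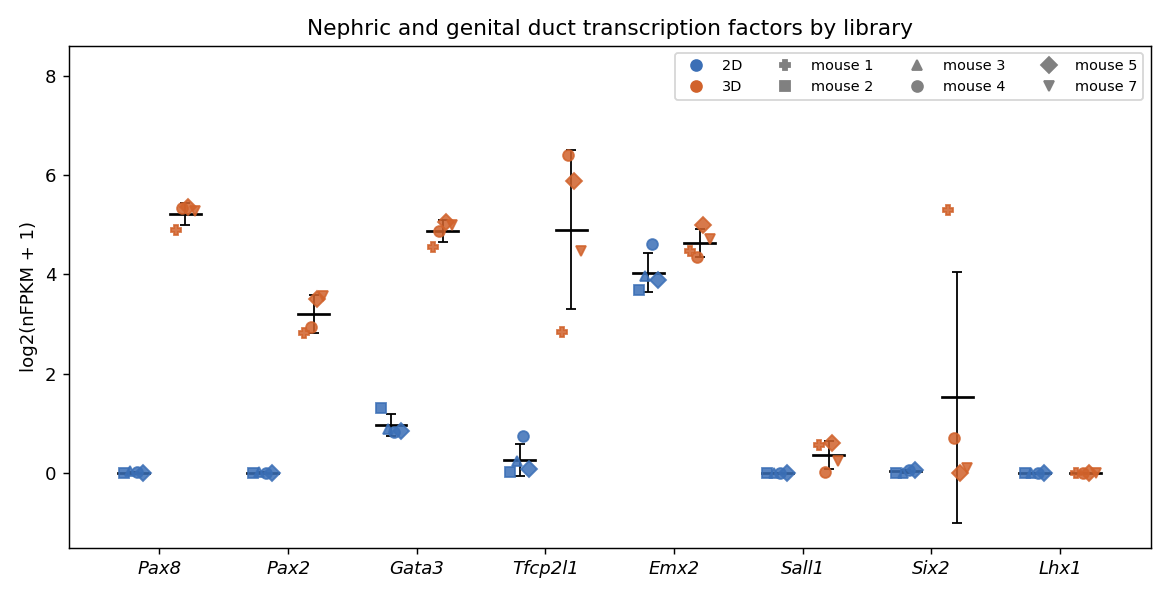
Level of each factor in the 8 libraries, as log2(nFPKM + 1), with 2D libraries in blue and 3D libraries in orange, a marker shape for each mouse, a bar at the mean and an error bar of 1 SD (n = 4). Pax8, Pax2, Gata3 and Tfcp2l1 separate the groups, Emx2 overlaps, and the Six2 mean in 3D rests on the library of mouse 1 at 38.3 nFPKM.

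The promoters of the factors that carry the comparison show how the start sites differ in base composition. The sequences are RefSeq promoters of the GRCm38.p6 build, from 250 bases before to 50 after the start site, written 5′ to 3′ along the gene's strand. All 8 factors were matched, with 12 promoters in all. Pax8 (chr2:24475550-24475849, minus strand), Gata3 (chr2:9878551-9878850, minus strand) and Tfcp2l1 (chr1:118627695-118627994, plus strand) are shown because these genes separated the groups, Emx2 (chr19:59458440-59458739, plus strand) because it did not, and Six2 (chr17:85688205-85688504, minus strand) because a single library held it. Capitals mark matches to the motifs searched on both strands, namely the motif of zinc-finger factors such as Gata3, AGATAA, the core of the paired-box motif, GCGTGAC, the homeodomain motif, TAATTA, the Grainyhead motif, AACCGGTT, the TATA box, TATAAA, and the CCAAT box. No match overlapped another within these promoters.
Pax8: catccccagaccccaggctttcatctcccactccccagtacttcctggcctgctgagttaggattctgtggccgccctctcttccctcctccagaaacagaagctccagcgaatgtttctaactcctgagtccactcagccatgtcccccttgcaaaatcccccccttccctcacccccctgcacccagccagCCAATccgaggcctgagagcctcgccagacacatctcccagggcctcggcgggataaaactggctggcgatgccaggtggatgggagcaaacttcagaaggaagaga
Gata3: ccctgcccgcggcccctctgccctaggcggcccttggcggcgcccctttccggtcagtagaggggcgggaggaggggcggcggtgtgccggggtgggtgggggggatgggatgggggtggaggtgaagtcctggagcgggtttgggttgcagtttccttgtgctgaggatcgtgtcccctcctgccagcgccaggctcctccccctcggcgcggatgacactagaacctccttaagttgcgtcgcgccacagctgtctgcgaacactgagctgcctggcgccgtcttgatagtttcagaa
Tfcp2l1: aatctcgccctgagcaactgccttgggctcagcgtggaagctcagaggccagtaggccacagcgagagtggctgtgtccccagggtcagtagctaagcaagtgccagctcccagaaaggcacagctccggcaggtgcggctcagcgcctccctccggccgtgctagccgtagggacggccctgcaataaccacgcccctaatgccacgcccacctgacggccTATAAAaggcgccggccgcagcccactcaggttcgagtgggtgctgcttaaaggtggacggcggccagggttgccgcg
Emx2: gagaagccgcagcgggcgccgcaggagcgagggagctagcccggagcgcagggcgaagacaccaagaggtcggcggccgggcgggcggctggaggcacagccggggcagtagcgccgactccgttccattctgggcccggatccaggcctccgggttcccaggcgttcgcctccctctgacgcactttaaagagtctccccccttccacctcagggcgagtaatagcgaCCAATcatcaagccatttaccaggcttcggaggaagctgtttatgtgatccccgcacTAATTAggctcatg
Six2: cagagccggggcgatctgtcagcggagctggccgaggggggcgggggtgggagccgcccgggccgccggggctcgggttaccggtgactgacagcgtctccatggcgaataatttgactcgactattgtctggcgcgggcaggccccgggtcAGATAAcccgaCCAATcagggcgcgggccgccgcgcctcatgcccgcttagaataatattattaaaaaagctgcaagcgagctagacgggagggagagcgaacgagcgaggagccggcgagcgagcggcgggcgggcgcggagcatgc

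The Pax8 promoter held 7 CpG dinucleotides, equal to the median of 7 over all promoters, whereas Gata3 held 22, Tfcp2l1 21, Emx2 26 and Six2 37. The promoters of Pax2, which also separated the groups and whose promoters are not printed, held 7, 23 and 30. Tfcp2l1 held TATAAA 28 bases before its start site, a motif found in 13.6% of 32817 promoters. CCAAT was found in the Pax8, Emx2 and Six2 promoters and in 1 promoter each of Lhx1 and Sall1, which is 5 of 12, and in 37.4% of all promoters. AGATAA was in the Six2 promoter (11.2% of all promoters) and TAATTA in the Emx2 promoter (5.30%). GCGTGAC (2.09%) and AACCGGTT (0.146%) were in none of the 12, and the Gata3 promoter held none of the 6 motifs.

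Pax8 and Pax2 encode paired-box factors that act together in the first steps of the nephric lineage, and Pax8 also marks thyroid and Müllerian epithelium. Pax8 lies at chr2:24420560-24475599 and Pax2 at chr19:44756045-44837871 (GENCODE M21). In the 2D cultures of mice 2, 3, 4 and 5, Pax8 was at 0, 0.0236, 0.0231 and 0 FPKM, and in the 3D cultures of mice 1, 4, 5 and 7 it was at 26.8, 35.1, 35.7 and 33.6 FPKM. Every 2D value was thus at or under the level of 3 fragments, and the 3D values lay within 1.40-fold of each other after normalization. Pax8 reached 36.5 ± 5.33 nFPKM (SD, n = 4) in 3D, with a difference of 5.21 (SE 0.14, limma's adjusted p = 3.55e-07). In deposited FPKM its 3D mean of 32.8 was at least 221-fold above the floor of the 2D libraries. Without the 3D culture of mouse 1 the bound was 235-fold. In bulk samples, fewer cells of a type and less RNA per cell cannot be told apart.

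Pax2 was at 0, 0.0197, 0 and 0 FPKM in the same 2D libraries and at 6.76, 6.92, 10.8 and 10.9 FPKM in the 3D libraries. The 2D values again lay at or under 3 fragments, and the 3D cultures of mice 5 and 7 were above those of mice 1 and 4. Pax2 reached 8.49 ± 2.47 nFPKM (SD, n = 4) in 3D, with a difference of 3.20 (SE 0.20, limma's adjusted p = 1.77e-05). In deposited FPKM its 3D mean of 8.84 was at least 150-fold above the 2D floor. Pax8 was between 3.09 and 5.07 times Pax2 in the 3D libraries in deposited FPKM. With the mouse as a block, limma's adjusted p was 0.111 for each of Pax8 and Pax2.

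The Pax2 and Pax8 transcripts are similar in the DNA-binding paired domain, and the longest identical stretch of their transcripts is shown because it limits how far reads of either gene could match the other exactly. It is 27 bases of coding sequence across the junction of exons 2 and 3 of Pax2 and of exons 3 and 4 of Pax8, in transcripts of 4358 bases and 2560 bases.
Pax2 and Pax8 shared run: ggcaggtactacgagactggcagcatc

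The values of the antisense gene 1700039E22Rik within the Pax2 locus, which was at 0 FPKM throughout 2D and ranged from 0.603 to 1.45 FPKM in 3D, stayed far below those of Pax2. The other 7 Pax family genes, Pax1, Pax3, Pax4, Pax5, Pax6, Pax7 and Pax9, did not exceed 0.352 nFPKM in any library, and none was called. Pax8 and Pax2 were the Pax genes with levels above 1 FPKM in these cultures.

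Gata3 encodes a zinc-finger factor needed for guidance and growth of the nephric duct. It lies on the minus strand at chr2:9857078-9890034. Gata3 was at 1.10, 0.758, 0.779 and 0.517 FPKM in the 2D cultures of mice 2, 3, 4 and 5 and at 21.5, 26.2, 28.9 and 28.2 FPKM in the 3D cultures of mice 1, 4, 5 and 7. It was above 3 fragments in all 8 libraries, and the groups did not overlap. The mean rose from 0.978 ± 0.340 to 28.4 ± 4.28 nFPKM (SD, n = 4), a ratio of 29.1 and a difference of 3.90 (SE 0.17, limma's adjusted p = 2.75e-06). The 2D value of mouse 2 stood above the others, at 1.49 nFPKM. With the mouse as a block, limma's adjusted p was 0.111.

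Within the Gata3 locus, 4930412O13Rik is a protein-coding gene on the opposite strand, upstream of the printed Gata3 promoter. It was at 0.0149, 0, 0 and 0 FPKM in 2D and between 6.29 and 7.23 FPKM in 3D, a difference of 2.86 (limma's adjusted p = 1.1e-06). The gene 9230102O04Rik, which overlaps the locus on the same strand, was at or below 0.111 FPKM in 2D and between 2.21 and 4.13 FPKM in 3D. These neighbours moved with Gata3 at lower levels. The library kit kept the strand, but the strand setting of the counting is not given in the sources used here, so reads of Gata3 and of 4930412O13Rik may be mixed. Among the other GATA genes, Gata2 fell by 3.00 in 3D (limma's adjusted p = 3.02e-05) and Gata6 fell by 4.07 (limma's adjusted p = 0.0014). Gata2, a factor of blood and stromal precursors, was between 5.69 and 10.9 nFPKM in 2D and at or below 0.248 in 3D. Gata6, a factor of mesoderm and endoderm derivatives, was at 5.49, 29.8, 44.2 and 7.80 nFPKM in 2D and at 0 in every 3D library.

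Lhx1 encodes a LIM homeobox factor of the nephric and Müllerian ducts. Lhx1 was at 0 FPKM in every 2D and every 3D library, and so was its divergent neighbour Lhx1os. At the estimated depth, a count of 0 allows Lhx1 levels of up to 0.151 FPKM in 2D and 0.172 FPKM in 3D, which is 3 fragments on its shortest coding transcript and covers counting error only. Lhx1 was thus not detectable at this depth. Of the other LIM homeobox genes, Lhx2 was higher in 3D by 0.46 (limma's adjusted p = 0.00873), at or below 0.651 nFPKM, and Lhx6 fell by 1.18 (limma's adjusted p = 0.000424).

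Tfcp2l1 encodes a CP2 family factor found in distal nephron, collecting duct and other duct epithelia and in pluripotent cells. It lies on the plus strand at chr1:118627945-118685168. Tfcp2l1 was at 0.00626, 0.158, 0.677 and 0.0316 FPKM in the 2D cultures of mice 2, 3, 4 and 5 and at 6.79, 69.5, 48.3 and 20.1 FPKM in the 3D cultures of mice 1, 4, 5 and 7. The groups did not overlap, but the 3D libraries spanned 13.7-fold in nFPKM, against 1.40-fold for Pax8 and 1.43-fold for Gata3. In 2D, the culture of mouse 2 lay under 3 fragments and those of mice 3 and 4 were the highest. The mean rose from 0.230 ± 0.300 to 42.3 ± 35.2 nFPKM (SD, n = 4), a ratio of 184 and a difference of 4.63 (SE 0.73, limma's adjusted p = 0.00174). The ratio rests on the 2D culture of mouse 4, without which it was 511.

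The 3D culture of mouse 1 was the lowest of the 3D group for Tfcp2l1 and also for Pax8, Pax2 and Gata3. Without it, the difference of Tfcp2l1 was 5.36 (limma's adjusted p = 0.000213). With the mouse as a block, limma's adjusted p was 0.111. Within mouse 4 Tfcp2l1 was at 0.669 and 83.9 nFPKM in 2D and 3D, and within mouse 5 at 0.0532 and 57.8. In the 3D libraries, Tfcp2l1 was between 0.254 and 1.98 times Pax8, while Gata3 stayed between 0.747 and 0.838 times Pax8 in deposited FPKM.

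The other CP2 genes, Tfcp2 and Ubp1, were present at similar levels in each group and were not called, at between 4.33 and 6.95 nFPKM for Tfcp2 and between 15.6 and 21.5 for Ubp1. Of the related Grainyhead genes, which regulate epithelial barriers and duct lumens, Grhl2 was at or below 0.0273 nFPKM in 2D and ranged from 25.3 to 40.1 in 3D, a difference of 4.89 (limma's adjusted p = 9.85e-07). Grhl1 was higher in 3D by 1.82 (limma's adjusted p = 0.000106), and Grhl3 was not called (limma's adjusted p = 0.107).

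Emx2 encodes a homeobox factor needed for the epithelium of the urogenital ducts and for the gonads and the cortex. It lies on the plus strand at chr19:59458372-59465357. Emx2 was at 11.7, 14.8, 24.2 and 13.9 FPKM in the 2D cultures of mice 2, 3, 4 and 5 and at 20.3, 18.5, 27.9 and 23.8 FPKM in the 3D cultures of mice 1, 4, 5 and 7. It was the only factor of the 8 with a mean above 1 FPKM in 2D. The groups overlapped, since the 2D culture of mouse 4 was above the 3D cultures of mice 1, 4 and 7 in deposited FPKM. The means were 15.9 ± 5.08 and 24.2 ± 5.10 nFPKM (SD, n = 4), a ratio of 1.52 and a difference of 0.60 (SE 0.22, limma's adjusted p = 0.0667).

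Within the mice present in both groups, Emx2 went in opposite directions. Its log2 difference was -0.25 in mouse 4 and 1.11 in mouse 5. Without the 2D culture of mouse 4, the difference was 0.77 (limma's adjusted p = 0.011), and with genes averaging under 1 FPKM left out, limma's adjusted p was 0.0486. The antisense gene Emx2os overlaps Emx2 by 264 bases and starts, on the minus strand, within the printed promoter, and it was at 1.38, 1.83, 2.70 and 1.83 FPKM in 2D and at 3.58, 3.06, 4.27 and 3.96 FPKM in 3D. Emx2os did not overlap between the groups in deposited FPKM, and its normalized difference of 0.41 did not pass the test (limma's adjusted p = 0.0828). The paralogue Emx1 was at or below 0.133 nFPKM in every library.

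**Figure D2:**
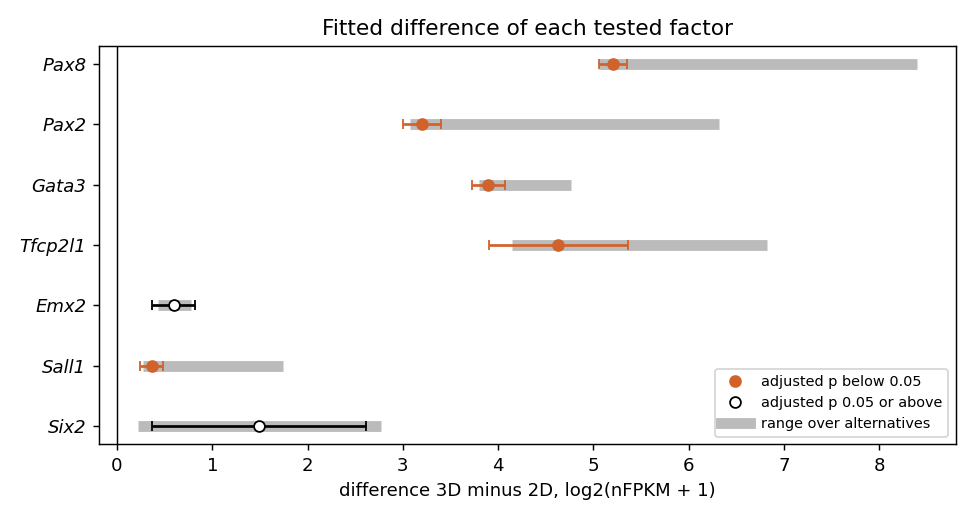
Difference between 3D and 2D cultures of each tested factor on the log2(nFPKM + 1) scale, with its standard error, filled where the adjusted p was below 0.05; grey bars give the range over the alternative settings, which include a pseudocount of 0.1. Pax8, Tfcp2l1, Gata3 and Pax2 lie between 3.20 and 5.21, while the bars of Emx2, Sall1 and Six2 reach below 0.5.

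Sall1 encodes a zinc-finger repressor of nephron progenitors. It lies on the minus strand at chr8:89027235-89044162. Sall1 was at 0 FPKM in all 4 2D libraries and at 0.734, 0.0242, 0.594 and 0.180 FPKM in the 3D cultures of mice 1, 4, 5 and 7. The 3D culture of mouse 4 lay under 3 fragments, so 3 of the 4 3D libraries were above the floor. The level in 3D was 0.304 ± 0.241 nFPKM (SD, n = 4). In deposited FPKM, Sall1 had a 3D mean of 0.383, at least 11.1-fold above the 2D floor and at least 7.71-fold without the 3D culture of mouse 1. Its difference of 0.36 (SE 0.12, limma's adjusted p = 0.0473) lost its call in 11 of 13 alternatives, over which the adjusted p ranged from 0.00573 to 0.436. Without the 3D culture of mouse 1 limma's adjusted p was 0.104, and with the mouse as a block it was 0.436. Sall2, its paralogue, was not called and was at 0.548 nFPKM in the 3D culture of mouse 1 and ranged from 3.62 to 7.83 in the other libraries.

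Six2 encodes the homeobox factor that keeps nephron progenitors from differentiating. It lies on the minus strand at chr17:85684277-85688274. Six2 was at 0, 0, 0.0576 and 0.0304 FPKM in the 2D libraries and at 34.2, 0.749, 0 and 0.0643 FPKM in the 3D cultures of mice 1, 4, 5 and 7. Only the 3D cultures of mice 1 and 4 lay above 3 fragments, and mouse 1 held nearly all of the signal. The difference of 1.49 (SE 1.12, limma's adjusted p = 0.330) did not pass the test. In deposited FPKM, the 3D mean of Six2 was at least 87.2-fold above the 2D floor with the library of mouse 1 and at least 2.70-fold without it. Its paralogue Six4 was present in all libraries, at between 3.19 and 8.55 nFPKM, and was not called.

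The longest stretch of transcript shared with Six4 was 32 bases. In the library where Six2 was high, Six4 was at its own highest level, 8.55 nFPKM. The Eya genes encode phosphatases that bind Six2 and its family. Eya2 was at or below 0.767 nFPKM in 2D and ranged from 82.9 to 112 in 3D, a difference of 6.35 (limma's adjusted p = 5.98e-07), and Eya4 fell by 2.81 in 3D (limma's adjusted p = 0.00023). Eya1, the partner in nephron progenitors, did not exceed 0.0467 nFPKM.

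In the 3D libraries the order of mean levels was Tfcp2l1 (42.3 nFPKM), Pax8 (36.5), Gata3 (28.4), Emx2 (24.2), Six2 (9.75), Pax2 (8.49), Sall1 (0.304) and Lhx1 (0). Tfcp2l1, from 6.12 to 83.9, overlapped all factors but Sall1 and Lhx1. The ranges of neighbours overlapped for Pax8 (28.7 to 40.2) and Gata3 (22.5 to 32.1) and for Gata3 and Emx2 (19.4 to 30.9), although Gata3 was below Pax8 in each 3D library. Pax2 (6.09 to 10.8) lay below the ranges of Pax8, Gata3 and Emx2, and the place of Six2 was set by a single library. Among all genes tested, the 3D mean of Tfcp2l1 was at the 90.2th percentile, that of Pax8 at the 88.5th and that of Pax2 at the 61.7th. In the 2D libraries the order was Emx2 (15.9), Gata3 (0.978) and Tfcp2l1 (0.230), and the other factors were at or under 3 fragments.

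Over the 8 libraries, the genes nearest to each factor were found by the root mean square difference of the centred log2 profiles, for the 6 factors averaging at least 1 FPKM in a group. The libraries fall into 2 groups, so that for Pax8, Pax2, Gata3 and Tfcp2l1 a small difference mainly reflects a shared gap between 2D and 3D. For Six2 it mainly reflects the 3D culture of mouse 1, and Emx2 overlapped between the groups. The nearest gene to Pax8 was Fermt1 (0.0822), followed by the epithelial splicing regulator Esrp1 (0.0937) and Bspry (0.145). Pax2 was nearest to Ptpn18 (0.146), Stc1 (0.175) and Pls1 (0.179), and Gata3 to Hoxb6 (0.154), BC021891 (0.176) and Tfap2a (0.178). Emx2 was nearest to Ik (0.133), Neil1 (0.141) and Tmem191c (0.153).

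Tfcp2l1 had the least close neighbours, Slc4a11 (0.509), Atg9b (0.513) and Syt8 (0.546). They were picked for a profile like that of Tfcp2l1, so their lowest 3D level, in the culture of mouse 1, is no separate result. Slc4a11, a membrane transporter, was at 4.93 nFPKM there and ranged from 21.7 to 51.2 elsewhere in 3D. Six2 was nearest to the tight junction gene Cldn10 (0.102), Ccdc42b (0.253) and 1500015O10Rik (0.263). Cldn10 was at 37.9 nFPKM in the 3D culture of mouse 1 and at or below 0.440 in all others, a pattern for which it was picked.

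**Figure D3:**
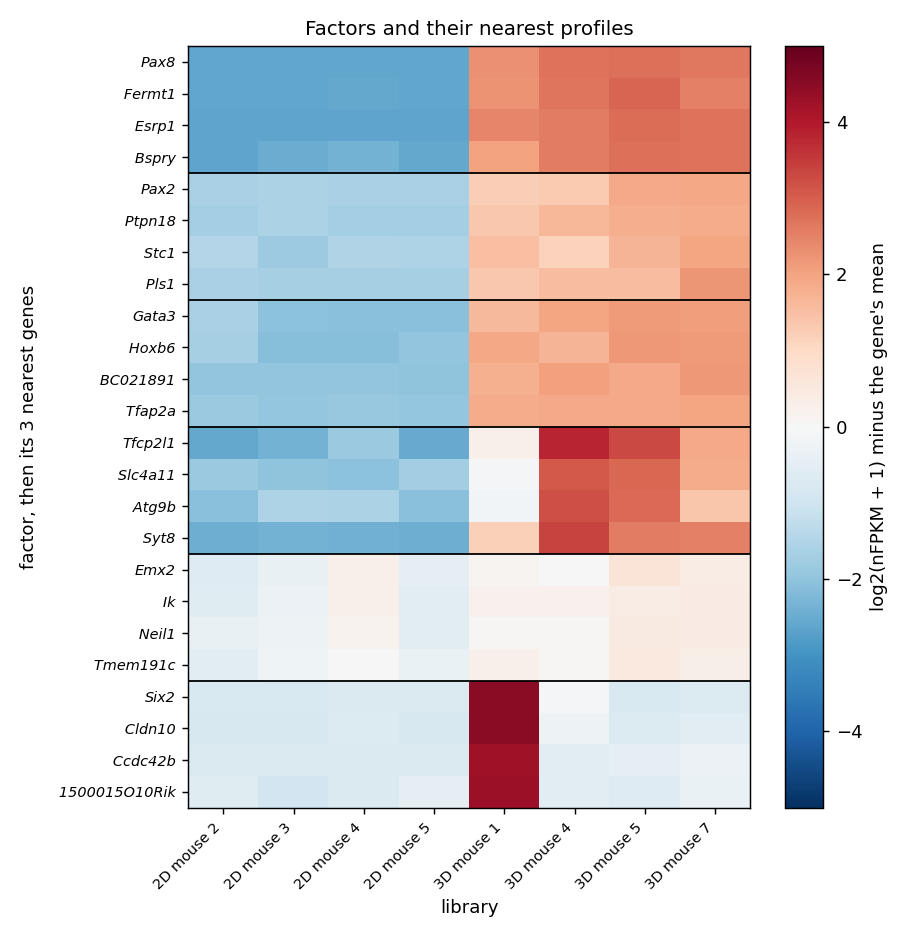
Heat map of log2(nFPKM + 1) minus each gene's mean over the 8 libraries (columns), for 6 factors, each followed by its 3 nearest genes (rows); red is above and blue below the mean. Pax8, Pax2 and Gata3 with their neighbours are above their means in all 3D libraries, Tfcp2l1 with its neighbours is lower in the 3D culture of mouse 1, and Six2 with its neighbours is high in that library alone. The neighbours share these patterns because they were picked by profile.

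Other genes of the pathway were read from lists of their known roles. The counts of each list stand beside 21.2% of all genes tested called higher and 20.3% called lower. Of 20 genes of duct induction and outgrowth, 11 were called higher in 3D, 5 lower and 4 not, with a median difference of 1.48, or 2.87 as a log2 fold on the deposited scale with bounds for genes at the floor (18 genes). The duct and tubule cadherin Cdh16 was at or below 0.0285 nFPKM in 2D and ranged from 124 to 243 in 3D, a difference of 7.48 (limma's adjusted p = 4.94e-07). Wnt7b, a ligand of the collecting duct, was at or below 0.687 nFPKM in 2D and ranged from 25.2 to 118 in 3D, a difference of 5.79 (limma's adjusted p = 6.8e-05). Bmp7, a survival factor of nephron progenitors, was at 92.8, 20.8, 10.8 and 16.7 nFPKM in the 3D cultures of mice 1, 4, 5 and 7 and at or below 0.032 in 2D, a difference of 4.66 (limma's adjusted p = 0.000577).

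The 5 duct induction genes called lower were Ret, Gfra1, Wnt11, Etv4 and Sox8. Ret and Gfra1, the receptor pair through which Gdnf drives the ureteric bud, fell by 1.52 (limma's adjusted p = 0.00266) and fell by 2.12 (limma's adjusted p = 0.0108). Ret was between 1.15 and 3.53 nFPKM in 2D and at or below 0.137 in 3D. The genes of this list thus moved in either direction.

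Of 18 nephron progenitor genes, 16 were tested, of which 3 were called higher, 3 lower and 10 not, with a median difference of -0.07, or -1.27 as a log2 fold with bounds (13 genes). The signals Fgf9 and Wnt4 were higher by 3.26 (limma's adjusted p = 3.86e-06) and 2.58 (limma's adjusted p = 0.00159), and the integrin gene Itga8 was higher by 0.36. Osr1, an early factor of the intermediate mesoderm, fell by 2.58 (limma's adjusted p = 0.000302), and the ligand gene Gdnf fell by 0.57 (limma's adjusted p = 8.94e-05), as did Tmem100. Osr1 was between 3.08 and 9.46 nFPKM in 2D and at or below 0.0729 in 3D. These shares, 3 of 16 in each direction, lay near the background of all genes.

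Of 14 Müllerian duct genes, 3 were called higher (Wnt4, Wnt7a and Dach1), 2 lower (Hoxa9 and Hoxa10) and 9 not, with a median difference of -0.02, or 0.94 as a log2 fold with bounds (12 genes). These shares lay near or below those of all genes tested, 21.2% higher and 20.3% lower. Dach1, a transcriptional cofactor, was higher by 2.17 (limma's adjusted p = 0.000216), and Wnt7a, a ligand of the Müllerian epithelium, by 2.13 (limma's adjusted p = 0.0118). Hoxa10, which patterns the uterus, fell by 3.02 (limma's adjusted p = 0.00583), and Hoxa9, which patterns the oviduct, fell by 2.18 (limma's adjusted p = 0.00859). Hoxa10 was at 5.07 nFPKM in the 3D culture of mouse 5 and at or below 0.0882 in the other 3D libraries.

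Of 32 tested paralogues of the factors, 3 were called higher, 3 lower and 26 not, with a median difference of -0.01, or 0.0066 as a log2 fold with bounds (21 genes). Of 24 cofactors, 6 were called higher, 3 lower and 15 not, with a median difference of 0.08, or -0.05 as a log2 fold with bounds (23 genes), while 7 were higher and 6 lower in values as deposited. The GATA cofactors Zfpm1 and Zfpm2 fell by 2.27 (limma's adjusted p = 0.000277) and fell by 2.47 (limma's adjusted p = 0.00455). Zfpm1 was between 26.8 and 52.8 nFPKM in 2D and between 4.93 and 7.91 in 3D.

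Genes of mature organs built from these ducts were mostly low. Of 21 genes of kidney segments, 17 were tested, of which 2 were called higher (Scnn1g among them), 1 lower (Cubn) and 14 not. Scnn1g did not exceed 0.401 nFPKM, and Hnf4a, Slc34a1, Umod and Slc4a1 were at 0 in every library. The tubule receptor Lrp2 was between 1.33 and 22.5 nFPKM in 2D and between 2.18 and 19.8 in 3D and was not called. Of 15 epididymal genes, 10 were tested, of which 1 was called higher and 9 were not, against 21.2% of all genes tested called higher. Crisp4, Lcn5, Lcn9, Lcn10 and Adam7 were at 0 in every library. The gene called was that of the water and solute channel Aqp9 (difference 3.18, limma's adjusted p = 0.00462). It was at or below 0.0416 nFPKM in 2D and at 1.55, 6.93, 21.0 and 14.6 in the 3D cultures of mice 1, 4, 5 and 7. Of 7 genes of the seminal vesicle and vas deferens, 5 were at 0 in every library and 0 were called (0 also at an unadjusted p below 0.05).

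**Figure D4:**
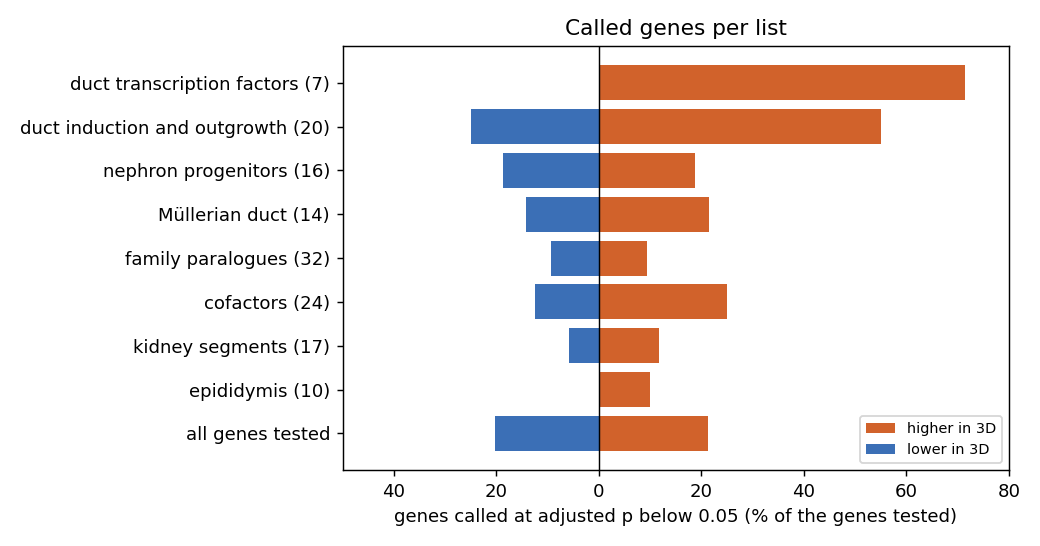
Share of the tested genes of the factors and of 7 duct and organ lists (number tested in brackets) called higher in 3D (orange, to the right) or lower (blue, to the left) at an adjusted p below 0.05, with all genes tested in the last row (21.2% higher and 20.3% lower). The bars to the right of the duct transcription factors and the duct induction list stand for 5 of 7 and 11 of 20 genes.

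Markers of other cell types also differed between the groups, in either direction. Of 13 epithelial genes, such as Epcam and Cdh1, 12 were called higher in 3D, and their summed level was between 32.0 and 694 nFPKM in 2D and between 2710 and 3192 in 3D, with Esrp1, Elf3 and Crb3 at 0 in every 2D library. Of 12 stromal genes, such as Col1a1 and Postn, 11 were called lower, and their summed level was between 2098 and 4530 nFPKM in 2D and between 4.78 and 8.71 in 3D, with Pdgfrb, Dcn and Lum at 0 in every 3D library. Of 5 surface markers of ADSCs, Thy1 and Eng were called lower in 3D, Ly6a was called higher, and Cd44 and Cd34 were not called. Ly6a overlapped between the groups, and in 9 of 14 alternatives 0 of these markers were called higher. Thy1 was between 66.5 and 279 nFPKM in 2D and did not exceed 0.0554 in 3D. The part of these genes in the differences of the duct factors was not tested.

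The 2D cultures of mice 3 and 4 stood apart by mesothelial genes, which summed to 861 and 2175 nFPKM there, to 2.24 and 0.815 in the other 2D libraries and to between 2.57 and 34.0 in 3D. None of the 8 mesothelial genes tested was called by limma (0 also at an unadjusted p below 0.05, and 2 lower with a pseudocount of 0.1). These libraries were also higher in the epithelial sum, at 176 and 694 nFPKM against 32.0 and 32.1 in mice 2 and 5, and had the higher Tfcp2l1 levels of the 2D group. Keratin genes held nearly all of this sum in mice 3 and 4, with Krt8 at 26.8 and 261 nFPKM and Krt18 at 114 and 256. Krt19 was at 31.6 and 109 nFPKM and Krt7 at 3.02 and 67.3. Epcam was at 0 in each, and the other epithelial genes did not exceed the 0.716 nFPKM of Cdh1 in mouse 4. Pax8 and Pax2 were at or under 3 fragments in these libraries too, and Emx2 was highest in the 2D culture of mouse 4. Without the 2D culture of mouse 3, of mouse 4, or the 3D culture of mouse 1, 4, 5 and 4 of the 7 factors were called, with Pax8, Pax2, Gata3 and Tfcp2l1 called each time and Emx2 also called without the 2D culture of mouse 4. The estimated depth ranged from 16.5 to 17.3 M fragments in 2D and from 14.5 to 15.8 M in 3D.

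**Figure D5:**
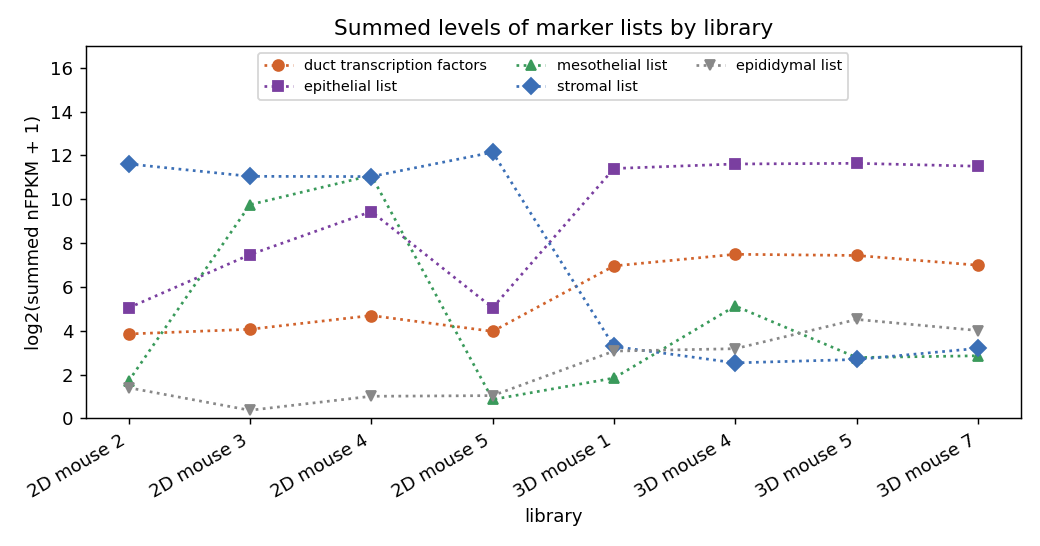
Summed level of the duct transcription factors and of 4 marker lists in each library, as log2(summed nFPKM + 1), joined by dotted lines to guide the eye. The duct factors and the epithelial list are high in the 3D libraries, the stromal list is high in 2D, and the mesothelial list is high in the 2D cultures of mice 3 and 4.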

How the data were processed

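The authors depleted ribosomal RNA from total RNA, made directional libraries, sequenced them in pairs, trimmed the reads, mapped them with TopHat (mm10, per the labels) and used Cufflinks to obtain FPKM. The deposited FPKM values carry no read counts and are not yet quantile normalized. Whole fragments leave steps among the low values, and the steps of 875 single-transcript genes (3000 bases or longer, GENCODE M21, which held 95.7% of the symbols) gave the depth. It came to between 14.5 and 17.3 M fragments, and 59.5% to 78.6% of these low values lay within 0.1 of a whole fragment. The floor of a gene is 3 fragments on its shortest basic coding transcript, and bounds cover counting error only.

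Genes at 0 in every library (5484) were left out, and 18862 were quantile normalized and compared as log2(FPKM + 1) with limma 3.58.1 in R 4.3.3, with an intensity trend, without covariates and with Benjamini-Hochberg adjustment. The code was tested on simulated data. The mouse numbers pair mice 4 and 5, which gave a culture of each kind, and over 12583 genes the deviations of their 2D and 3D libraries from the group means correlated at -0.05 and -0.11. Nothing in the sources used here says how cultures of a mouse were kept apart, so the p-values measure the spread between these libraries.

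The members and the gene lists, which also hold endothelial, macrophage and adipocyte markers, were chosen with earlier results of these data known. Named genes are the 8 factors, the 4 called genes of each list with the largest difference, and the 3 nearest profiles of each factor averaging at least 1 FPKM. The markers outside the duct lists are given by example only. Alternatives were the mouse as a block, a pseudocount of 0.1, values as deposited, no trend, genes averaging 1 FPKM or more, only mice 4 and 5, each library left out and the criterion of the study. Promoters are from RefSeq (GRCm38.p6, the build that mm10 names). No protein sequence was used here. Some genes of the lists are not reported here.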

Additional observations from a re-analysis of the deposited data

Results flagged for a closer look

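In 3 of 13 groups of 4 libraries, a single library lay far from the other 3 relative to the range of its group. For normally distributed values chance gives this in about 1 in 20 groups, a rate that does not hold for groups with values at 0. Where the other 3 libraries are at 0, any value above 0 meets the rule. Six2 was at 38.3 nFPKM in the 3D culture of mouse 1, against 0.631 in the next highest 3D library. Gata3 was at 1.49 nFPKM in the 2D culture of mouse 2, while the other 2D libraries lay between 0.785 and 0.841. Pax2 was at 0.0191 nFPKM in the 2D culture of mouse 3 and at 0 in the other 2D libraries, which is about 1.04 fragments and lies under the floor of 3.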

How the results depend on the processing

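With the replicate block for the mouse, which leaves 1 residual degree of freedom, 0 genes and 0 of the 7 factors were called by limma, where 5216 genes and 4 factors had an unadjusted p below 0.05; without it, 7823 genes (4000 higher and 3823 lower) and 5 factors were called. With only mice 4 and 5, 3220 genes and 4 factors were called, and at the criterion of the study 4059 genes and 4 factors. Leaving out each library in turn gave between 6672 and 7534 genes and between 4 and 5 factors. The direction of the 7 tested factors was kept in all 97 recomputed differences, and the block was the only alternative that removed the calls of Pax8, Pax2, Gata3 and Tfcp2l1. Sall1 lost its call in 11 of 13 alternatives, Emx2 gained one in 2 of 14, and Six2 had none in 14. Of 476 counts for the lists, 421 stayed within 1.5 times. Values of Sall1, of Six2 outside the 3D library of mouse 1 and of most factors in 2D rest on few fragments, and Lhx1 could not be tested.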

Other observations

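The 3D library of mouse 1 differed from the other 3D libraries in further duct genes, which were chosen after their values were seen. The estrogen receptor gene Esr1, which marks genital duct epithelium and stroma, was at 24.3 nFPKM in it and between 0.759 and 1.18 in the others. Etv5, a target of Ret and FGF signalling, was at 120 against 28.1 to 29.7 nFPKM, and Sox9, a factor of ureteric tips, at 158 against 57.3 to 72.7. Msx2, a homeobox gene of the Müllerian duct, was at 15.7 against 0.927 to 2.89 nFPKM. The anion exchanger gene Slc26a4 was at 3.43 against 0.0685 or less, and the epididymal gene Crisp1 at 3.59 against 0.394 or less. Lrp2 and Ly6a went the other way, at 2.18 against 13 to 19.8 and at 58.6 against 1430 or more nFPKM. These are values of a single library, and no test was run on them.

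In the 2D libraries of mice 3 and 4, factors of the coelomic lining were also higher. Wt1 was at 52.6 and 72.5 nFPKM in these libraries and at 0.155 and 0.0659 in those of mice 2 and 5, and Gata4 at 2.09 and 3.36 against 0 in each. Of 5 endothelial genes none was called by limma (2 at an unadjusted p below 0.05, and 3 lower with a pseudocount of 0.1). Of 5 macrophage genes, Cd68 was called higher by 2.19 (limma's adjusted p = 0.0133) and 4 were not called. Among these, Lyz2 was between 0.227 and 18.7 nFPKM in 2D and, like Adgre1, at 0 in every 3D library. Ptprc did not exceed 0.0779 nFPKM, and Csf1r was between 0.486 and 1.44 in 2D and between 0.264 and 7.65 in 3D. Of 3 tested adipocyte genes, Pparg fell by 2.56 (limma's adjusted p = 0.000101), and Plin1 and Cidec were not called and did not exceed 0.111 nFPKM. Adipoq and Lep were at 0 in every library. Of 5 ADSC surface markers, Ly6a was called higher by 3.86 (limma's adjusted p = 0.0432), while Thy1 fell by 7.12 (limma's adjusted p = 9.07e-06) and Eng fell by 3.75 (limma's adjusted p = 0.00719). In 9 of 14 alternatives 0 of these markers were called higher.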
